A study of Mus musculus with 15 samples.

Results

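Genes of B cells and of the chemokine system that builds lymphoid follicles were followed in RNA from mouse lung. The members are 9 of the 57010 genes of the deposited tables, taken by name: Cd79a, Cd79b, Pax5, Cr2, Fcer2a, Cxcr5, Cxcl13, Ccl19 and Ltb. Each name matched 1 row, and all 9 passed the filter on low counts that left 17879 genes. The 15 libraries were labelled as lung of C57BL/J mice and fall into 4 groups, with collection of the lungs at day 30. The control group (n = 4, numbers 1, 2, 4 and 7) received physiological saline. The DMSO group (n = 4, numbers 1, 4, 6 and 7) received dimethyl sulfoxide, a solvent. The silica group (n = 3, numbers 1, 2 and 7) was given silica particles in suspension, as drops into the nose. The silica_DMSO group (n = 4, numbers 2, 4, 5 and 6) was given the same silica and then DMSO on the second day. No genetic alteration is given for any group. The labels do not say whether the libraries are separate animals, so the p-values measure the spread between libraries, which may be technical.

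B cells carry an antigen receptor whose signal passes into the cell through a pair of partner chains, the products of Cd79a and Cd79b. Pax5 is the transcription factor that fixes B cell identity. In lymph nodes and spleen, B cells gather in follicles because stromal cells there secrete the chemokine Cxcl13, which B cells sense through the receptor Cxcr5, while Ccl19 draws T cells and dendritic cells to the neighbouring zone. B cells and other lymphocytes in turn carry lymphotoxin beta, the product of Ltb, which signals to the stroma and maintains its chemokine output. Lung can form such follicles after chronic inflammation, and they are then called tertiary lymphoid tissue.

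Promoter sequences are shown for 3 members because their levels followed different patterns among the libraries described below: Cxcl13 as the chemokine, Ltb as the lymphotoxin chain and Cd79a as the B cell gene. Each stretch runs from 250 bases before to 50 bases after the start of the gene in RefSeq on build GRCm38.p6, and is written 5′ to 3′ on the gene's own strand. The Cxcl13 window is chr5:95956689-95956988 on the plus strand, the Ltb window is chr17:35194257-35194556 on the plus strand, and the Cd79a window is chr7:24897247-24897546 on the plus strand. Capitals mark matches to the words searched.
Cxcl13: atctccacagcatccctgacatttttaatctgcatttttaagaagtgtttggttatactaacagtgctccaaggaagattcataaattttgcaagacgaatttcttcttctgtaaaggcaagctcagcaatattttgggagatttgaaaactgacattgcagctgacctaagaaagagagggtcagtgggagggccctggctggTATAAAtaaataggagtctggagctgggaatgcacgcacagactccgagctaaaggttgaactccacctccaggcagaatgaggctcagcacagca
Ltb: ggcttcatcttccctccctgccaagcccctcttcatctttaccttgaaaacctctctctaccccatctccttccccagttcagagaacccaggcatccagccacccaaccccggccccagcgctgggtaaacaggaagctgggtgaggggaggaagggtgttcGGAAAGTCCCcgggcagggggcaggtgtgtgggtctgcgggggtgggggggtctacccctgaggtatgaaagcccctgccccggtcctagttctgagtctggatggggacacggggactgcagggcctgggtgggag
Cd79a: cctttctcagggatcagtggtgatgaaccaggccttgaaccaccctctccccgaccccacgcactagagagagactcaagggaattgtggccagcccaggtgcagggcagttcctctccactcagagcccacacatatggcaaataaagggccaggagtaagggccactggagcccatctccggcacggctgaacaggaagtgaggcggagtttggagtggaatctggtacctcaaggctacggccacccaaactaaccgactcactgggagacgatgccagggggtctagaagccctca
Both strands were searched for the octamer ATGCAAAT, the palindrome bound by the B cell factor EBF, and the kappa B word of the NF-kB family. The table held 9 promoters of 7 members (Cd79a, Pax5, Cr2, Cxcl13, Ccl19, Ltb and 3 for Fcer2a). The octamer was in 0 of these 9 promoters and in 1.74% of all 32851 promoters of the table. The EBF palindrome was in 0 of 9 and in 0.904% of all. The kappa B word was in 1 of 9 and in 0.411% of all, and its match was in the Ltb promoter, on the minus strand, where the plus strand reads GGAAAGTCCC from 87 bases before the start. A search for TATAAA was added after the sequences had been read. It matched 2 of the 9 promoters, against 13.6% of all, in Cxcl13 from 46 bases before the start and in 1 of the 3 Fcer2a promoters from 33 bases before it. No matches overlapped. A match is a description of the letters only.

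Libraries were not alike within groups, and 3 kinds of departure bear on the members. DMSO 7, silica_DMSO 4 and silica_DMSO 6 held thymus transcripts and are called thymus-like here: summed thymic epithelium genes (7 genes, among them Foxn1, the factor that makes thymic epithelium) reached 766 to 1417 TPM there and 1.12 to 5.61 TPM in the other 12 libraries, and Rag1, the recombinase of developing lymphocytes, was at 2541 to 3876 CPM against at most 0.224 CPM. Alveolar type 2 genes (9 genes, the surfactant cells of the lung) summed to 1007 to 16381 TPM in the thymus-like libraries and 24741 to 63815 TPM in the other 12, which are called the lung libraries from here on. Silica 1 had the highest summed plasma cell genes of all, 40777 TPM, with Igkc, an antibody light chain, alone at 35844 TPM. DMSO 4 followed at 19543 TPM, and by CPM its Igkc (9078) was above that of silica 1 (7650). A set of 5 libraries (control 1, DMSO 1, DMSO 4, silica 7 and silica_DMSO 5) had only 11.5% to 24.2% of their counts in genes longer than 3000 bases. The other 10 had 34.0% to 44.9%, and the 5 are called short-gene libraries. The scaling factors of the trimmed mean of M-values (TMM) differed with this, down to 0.616 in DMSO 4 and 0.478 in silica_DMSO 5 against 0.898 to 1.24 in the other 13. Below, CPM is a count scaled by its library's total, normalised CPM is that value after TMM, and TPM also divides by length. The total count ran from 17434649 to 20829960 per library. In tissue RNA like this, fewer cells of a type and less RNA per cell cannot be told apart.

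No member passed the test in any comparison, and the spread among libraries of a group was wide. With edgeR's quasi-likelihood test on 15 libraries, 0 of 9 members were called at an adjusted p under 0.05 for silica against control, where 0% of the 17879 genes were called, and DESeq2 called 0 of 9 with 44 genes (0.246%) in all. For silica_DMSO against silica the count was 0 of 9 with 0% of genes by edgeR, and 0 of 9 with 67 genes (0.375%) by DESeq2. For DMSO against control edgeR called 0 of 9 with 0% of genes, and DESeq2 0 of 9 with 63 genes (0.352%). For silica_DMSO against DMSO edgeR called 0 of 9 with 0% of genes, and DESeq2 0 of 9 with 1 gene (0.00559%). For the interaction of silica and DMSO edgeR called 0 of 9 with 0% of genes, and DESeq2 0 of 9 with 8 genes (0.0447%). At an unadjusted p under 0.05, edgeR's test picked 0 of 9 members for silica against control (2.92% of genes), 2 for silica_DMSO against silica (5.91%), 0 for DMSO against control (7.13%), 1 for silica_DMSO against DMSO (1.71%) and 0 for the interaction (1.66%). Without the thymus-like libraries, edgeR again called 0 of 9 members in each of the 5 comparisons, with 0.0113% of genes called for silica against control and 0% in the other four.

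The levels of the 9 genes differed widely per length. Over the 12 lung libraries, Cd79b (mean 47.5 TPM, range 26.3 to 82.2) and Cd79a (mean 40.4 TPM, range 3.99 to 95.1) stood highest. Ltb followed at 26.9 TPM (range 11.5 to 52.4), then Cxcl13 at 15.6 TPM (range 6.66 to 54.3) and Ccl19 at 14.9 TPM (range 6.99 to 35.9). Fcer2a (5.61 TPM), Cxcr5 (4.35 TPM), Pax5 (3.50 TPM) and Cr2 (2.22 TPM) were the lowest. The Pax5 mean is uncertain, since it includes 5.31 TPM in silica_DMSO 5 from 60 counts and 3.10 TPM in DMSO 4 from 22 counts. Ranges of neighbours in this order overlapped throughout. In the thymus-like libraries, Ltb was the highest member in TPM, at 90.2 in DMSO 7, 187 in silica_DMSO 4 and 175 in silica_DMSO 6.

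**Figure D1:**
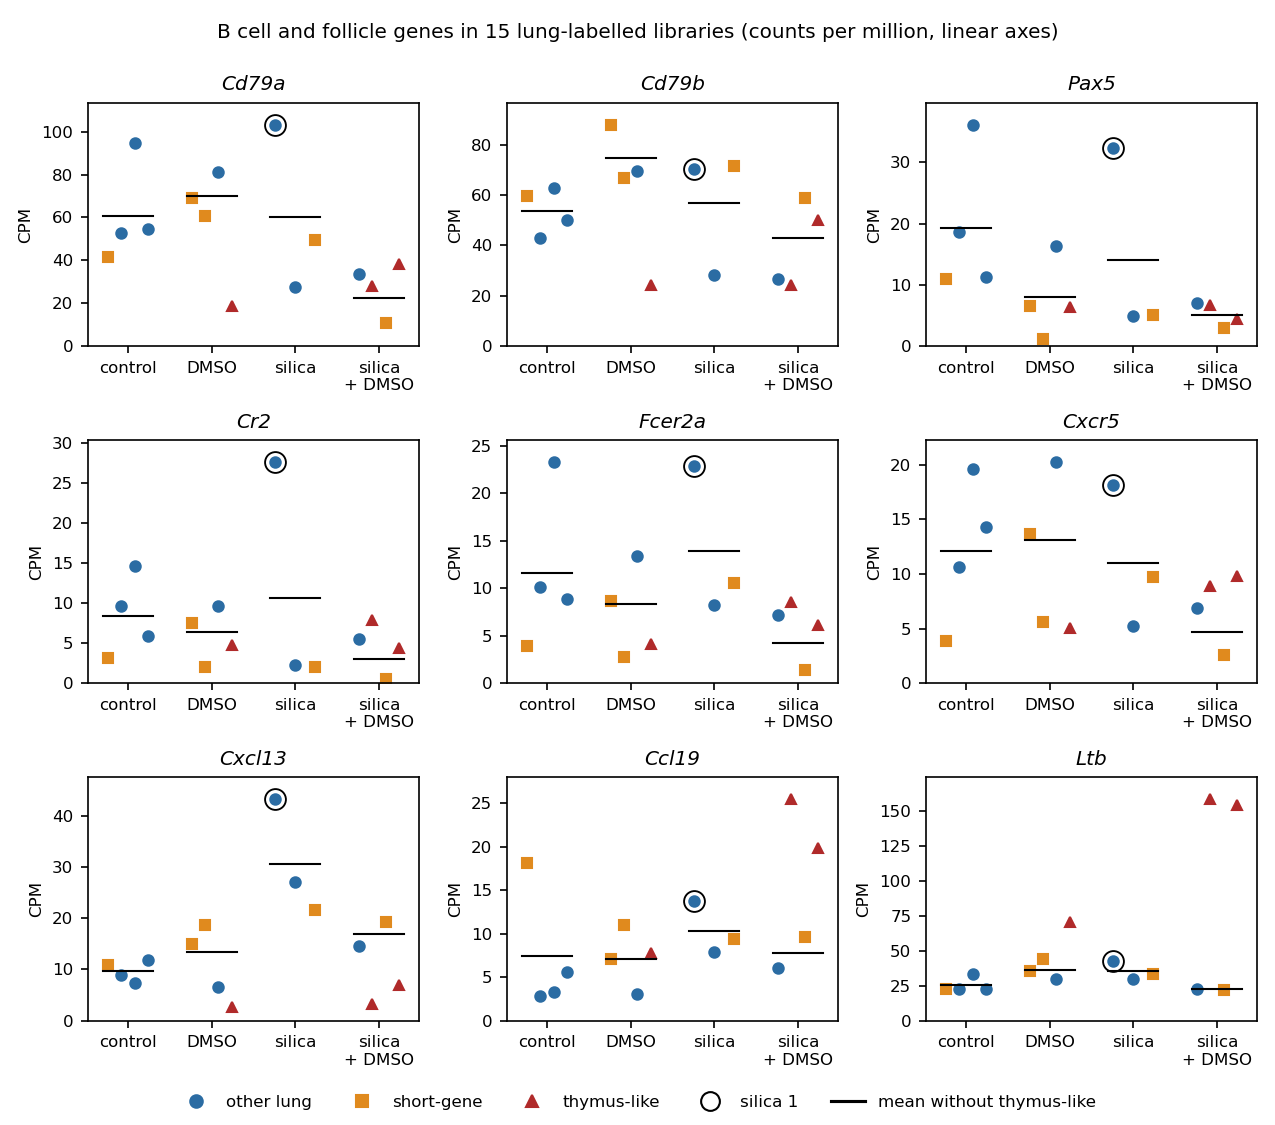
CPM (y axis, linear) of each of the 9 genes in 15 libraries, arranged by group, with 1 point per library, the line at the mean of the lung libraries, squares for short-gene, triangles for thymus-like libraries and a ring around silica 1. Cxcl13 is the gene whose 3 silica points all lie above the 4 control points, and silica 1 is at or near the top of most panels.

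The B cell receptor partner Cd79a (ENSMUSG00000003379) was at 41.4, 52.8, 94.7 and 54.6 CPM in controls 1, 2, 4 and 7, and at 68.9, 60.5, 81.1 and 18.7 CPM in DMSO 1, 4, 6 and 7. In silica 1, 2 and 7 it was at 103, 27.5 and 49.4 CPM, and in silica_DMSO 2, 4, 5 and 6 at 33.7, 27.9, 10.9 and 38.4 CPM. Silica 1 and control 4 were the highest of all 15, silica_DMSO 5 was the lowest, and silica and control overlapped fully. The group means were 60.9 ± 23.3 CPM in control (SD, n = 4), 57.3 ± 27.1 in DMSO (n = 4), 60.0 ± 38.9 in silica (n = 3) and 27.7 ± 12.02 in silica_DMSO (n = 4). Silica against control gave a log2 fold change of -0.01 ± 0.52 (SE, adjusted p = 1, edgeR's quasi-likelihood test). For silica_DMSO against silica it was -1.03 ± 0.51 (adjusted p = 0.708), and -0.61 ± 0.44 (adjusted p = 1) without silica 1 and the thymus-like libraries. The lowest unadjusted p of a member in the 12 lung libraries belonged to Cd79a for silica_DMSO against DMSO, with a log2 fold change of -1.65 ± 0.48 and an edgeR p of 0.00562 that adjusted to 1. There the 2 silica_DMSO lung libraries (33.7 and 10.9 CPM) were below the 3 DMSO lung libraries by CPM, as 5.94% of all genes were. By TPM silica_DMSO 2 (27.8) was above DMSO 4 (23.1).

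The second partner chain, Cd79b (ENSMUSG00000040592), was at 59.5, 42.9, 62.6 and 50.1 CPM in the controls and at 87.8, 66.7, 69.3 and 24.3 CPM in the DMSO libraries, in the same order as above. The silica libraries held 70.3, 28.4 and 71.5 CPM and the silica_DMSO libraries 26.6, 24.1, 58.9 and 50.2 CPM. Its range over the lung libraries, 3.30-fold from lowest to highest, was narrower than the 9.48-fold range of Cd79a. The pair parted most in silica_DMSO 5, where Cd79b was 5.42 times Cd79a in CPM, against 0.661 to 1.45 times in the other 11 lung libraries. Without DMSO 7, the 3 DMSO lung libraries (66.7 to 87.8 CPM) lay above all 4 controls (42.9 to 62.6 CPM), as 2.53% of all genes did. The groups overlapped on the other scales: by normalised CPM DMSO 6 (61.6) was below control 1 (66.4), and by TPM DMSO 4 (32.5) was below all 4 controls (38.3 to 75.4). DMSO against control was 0.49 ± 0.60 (adjusted p = 0.776) with 15 libraries and 0.78 ± 0.52 (adjusted p = 0.522) with 12 by edgeR's test. Silica against control was 0.10 ± 0.65 (adjusted p = 1).

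Pax5 (ENSMUSG00000014030), the identity factor, was at 10.96, 18.7, 36.1 and 11.4 CPM in the controls and at 6.50, 1.12, 16.4 and 6.36 CPM in the DMSO libraries. It was at 32.4, 4.88 and 5.04 CPM in the silica libraries and at 7.10, 6.80, 2.91 and 4.39 CPM in the silica_DMSO libraries. Silica 1 lay within the control range, while silica 2 and silica 7 were below all 4 controls, so the mean of 14.1 ± 15.8 CPM (SD, n = 3) describes no single silica library. Silica against control gave a log2 fold change of -0.49 ± 0.70 (adjusted p = 1, edgeR) with 15 libraries and -1.82 ± 0.74 (adjusted p = 0.923) without silica 1 and the thymus-like libraries. Silica_DMSO against silica went from -1.19 ± 0.69 (adjusted p = 0.708) to 0.29 ± 0.79 (adjusted p = 1) with the same libraries left out. DMSO against control was -1.27 ± 0.65 (adjusted p = 0.649).

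Count and TPM differed for Pax5. The ratio of a count to its TPM, set to the length listed for the bulk of genes in a library, gives the length used for that gene, and for Pax5 this implied length ran from 198 bases in DMSO 4 and 288 bases in silica_DMSO 5 to 7867 bases in silica_DMSO 4, with 8004 bases listed in the table. All 5 short-gene libraries had implied lengths of at most 3266 bases, and the other 10 had at least 3817. As a result DMSO 4, with 22 counts, was listed at 3.10 TPM, and silica_DMSO 5, with 60 counts, was listed at 5.31 TPM, the third highest of the lung libraries. The implied length varied 39.7-fold for Pax5, 3.47-fold for Cr2 and 1.03-fold to 1.61-fold for the other 7 members. Pax5 is therefore compared between libraries mainly by count here, and its TPM values are uncertain.

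**Figure D2:**
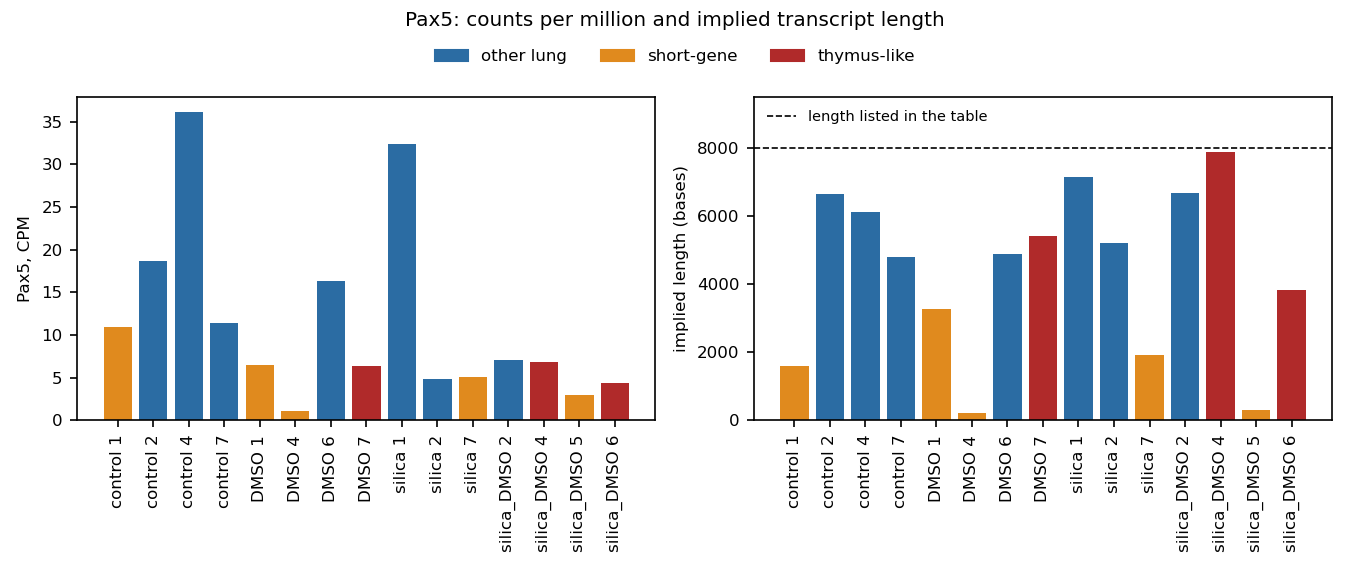
Left, Pax5 CPM (y axis) in each of 15 libraries; right, the transcript length in bases (y axis) implied by the ratio of its count to its TPM, with the listed 8004 bases as a dashed line and colours for short-gene, thymus-like and other libraries. The 5 short-gene libraries have the lowest implied lengths, 198 to 3266 bases.

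Complement receptor 2, encoded by Cr2 (ENSMUSG00000026616), sits on mature B cells and on follicular dendritic cells, the stroma that holds antigen in follicles. It was at 3.16, 9.64, 14.7 and 5.96 CPM in the controls and at 7.47, 2.09, 9.67 and 4.78 CPM in the DMSO libraries. It was at 27.6, 2.29 and 2.02 CPM in the silica libraries and at 5.49, 7.89, 0.583 and 4.45 CPM in the silica_DMSO libraries. Silica 1 was 1.88 times the next lung library, control 4, and silica 2 and silica 7 were below all 4 controls. The value in silica_DMSO 5 rests on 12 counts. The log2 fold change for silica against control was 0.29 ± 0.80 (adjusted p = 1, edgeR) with 15 libraries and -1.81 ± 0.70 (adjusted p = 0.923) without silica 1 and the thymus-like libraries, so 1 library set its sign. For silica_DMSO against silica the values were -1.16 ± 0.80 (adjusted p = 0.708) and 0.50 ± 0.75 (adjusted p = 1).

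Fcer2a (ENSMUSG00000005540) encodes CD23, the low-affinity IgE receptor of follicular B cells. It was at 3.95, 10.1, 23.3 and 8.92 CPM in the controls and at 8.72, 2.76, 13.4 and 4.16 CPM in the DMSO libraries. It was at 22.9, 8.20 and 10.6 CPM in the silica libraries and at 7.20, 8.52, 1.36 and 6.11 CPM in the silica_DMSO libraries. Silica 1 and control 4 were again the highest, and the silica range lay within the control range. On the normalised scale all 4 silica_DMSO libraries were below all 3 silica libraries, as 1.39% of all genes were, although by CPM silica_DMSO 4 (8.52) was above silica 2 (8.20). Silica_DMSO against silica gave -1.25 ± 0.56 (unadjusted p = 0.0439, adjusted p = 0.708, edgeR), and silica against control 0.31 ± 0.56 (adjusted p = 1).

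The receptor for Cxcl13, encoded by Cxcr5 (ENSMUSG00000047880), was at 3.85, 10.6, 19.6 and 14.3 CPM in the controls and at 13.6, 5.57, 20.2 and 5.06 CPM in the DMSO libraries. It was at 18.1, 5.28 and 9.75 CPM in the silica libraries and at 6.85, 8.90, 2.56 and 9.81 CPM in the silica_DMSO libraries. All 4 groups overlapped. No comparison came near the threshold: silica against control was -0.08 ± 0.54 (adjusted p = 1, edgeR) and silica_DMSO against silica was -0.59 ± 0.54 (adjusted p = 0.722). The receptor thus had group means of 12.1 ± 6.61 CPM in control (SD, n = 4) and 11.04 ± 6.51 CPM in silica (n = 3), while its ligand was the 1 member whose silica libraries did not overlap the controls.

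Cxcl13 (ENSMUSG00000023078) was at 10.9, 8.88, 7.37 and 11.8 CPM in the controls and at 43.1, 27.0 and 21.5 CPM in silica 1, 2 and 7. It was at 14.998, 18.7, 6.58 and 2.76 CPM in the DMSO libraries and at 14.5, 3.22, 19.3 and 6.91 CPM in the silica_DMSO libraries. All 3 silica libraries were above all 4 controls, by CPM, by normalised CPM and by TPM; among all genes, 5.13% lay higher in all silica libraries by CPM and 4.14% lay lower in all, and 5.83% lay higher by normalised CPM and 2.72% by TPM. Group means were 9.75 ± 2.01 CPM in control (SD, n = 4) and 30.5 ± 11.3 CPM in silica (n = 3). The log2 fold change was 1.61 ± 0.84 with 15 libraries (adjusted p = 1, edgeR's quasi-likelihood test) and 1.57 ± 0.52 with the 12 lung libraries (unadjusted p = 0.0114, adjusted p = 0.592). It was 1.37 ± 0.59 (adjusted p = 0.923) when silica 1 was also left out, where 0.0172% of genes were called. A fit of the 7 silica and control libraries alone gave 1.61 ± 0.31 (adjusted p = 0.0978), where 0.249% of 16467 genes were called. A fit of the 7 lung libraries that are not short-gene, chosen after the data had been seen, gave 1.89 ± 0.30 (adjusted p = 0.0656), where 0.268% of genes were called. Over these 5 fits the difference was 1.37 to 1.89 on the log2 scale, and it passed the threshold in none of them.

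After DMSO, Cxcl13 was lower by CPM in all 4 silica_DMSO libraries (3.22 to 19.3) than in the 3 silica libraries (21.5 to 43.1), as 1.9% of all genes were. The order did not hold on the normalised scale, where silica_DMSO 5 had 40.4 normalised CPM, above the 36.1 of silica 1. The log2 fold change was -0.87 ± 0.83 (adjusted p = 0.732, edgeR) with 15 libraries, and -0.08 ± 0.63 (adjusted p = 0.997) with the 12 lung libraries. Leaving out silica_DMSO 5 alone gave -1.99, and the 7 lung libraries that are not short-gene gave -1.28 ± 0.43 (unadjusted p = 0.0188, adjusted p = 1). The 2 low values, in silica_DMSO 4 and 6, are from thymus-like libraries; DMSO 7, the third, was also low at 2.76 CPM. Over the thymus-like libraries Cxcl13 averaged 0.252 of its lung mean, the lowest ratio of the 9 genes.

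**Figure D3:**
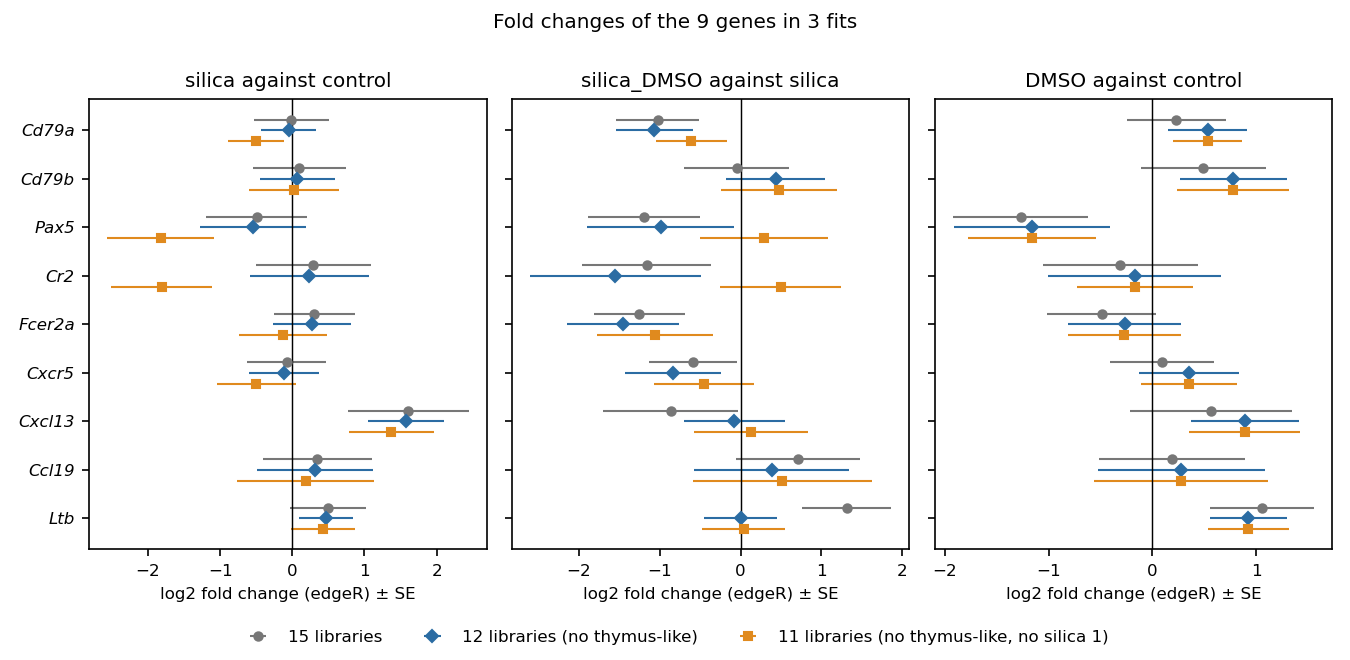
Log2 fold changes with SE from edgeR (x axis) of the 9 genes (y axis) in 3 comparisons, each from 15 libraries, from the 12 lung libraries and from 11 of them without silica 1. Cxcl13 stays at 1.37 to 1.61 for silica against control, while Pax5 and Cr2 move to -1.82 and -1.81 once silica 1 is left out.

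Ccl19 (ENSMUSG00000071005), the chemokine of the T cell zone, was at 18.1, 2.84, 3.31 and 5.57 CPM in the controls and at 7.08, 11.01, 3.07 and 7.76 CPM in the DMSO libraries. It was at 13.8, 7.84 and 9.39 CPM in the silica libraries and at 6.01, 25.4, 9.62 and 19.9 CPM in the silica_DMSO libraries. Control 1, a short-gene library, was the highest lung library, and only silica_DMSO 4 and 6 were above it. Silica against control was 0.34 ± 0.75 (adjusted p = 1, edgeR) with 15 libraries and 1.46 ± 0.40 (unadjusted p = 0.00775, adjusted p = 0.233) with the 7 lung libraries that are not short-gene. Without control 1 alone the 15-library value was 1.497. Mouse Ccl19 has near-identical copies, and its count was not a whole number in 15 of 15 libraries, so its level is uncertain. The copy Ccl19-ps2 averaged 101 counts, and Ccl19 held 60.2% to 71.5% of the sum over itself and its 3 listed copies. That sum was whole, within 0.015, in 11 of 15 libraries. With the copies added in, silica against control was 0.19 ± 0.75 (adjusted p = 1) and silica_DMSO against silica was 0.80 ± 0.77 (adjusted p = 0.731).

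Ltb (ENSMUSG00000024399), lymphotoxin beta, was at 22.8, 22.8, 33.1 and 22.9 CPM in the controls and at 35.2, 44.3, 29.9 and 70.4 CPM in the DMSO libraries. It was at 42.5, 29.8 and 33.6 CPM in the silica libraries and at 22.9, 158, 22.2 and 154 CPM in the silica_DMSO libraries. All 3 thymus-like libraries (70.4, 158 and 154) were above all 12 lung libraries (22.2 to 44.3) by CPM and by TPM. On the normalised scale DMSO 7 (59.7) was below DMSO 4 (71.9). The ratio of Ltb to Cd79a in CPM was 3.76 to 5.67 in the thymus-like libraries and 0.350 to 2.04 in the lung libraries. Summed T cell genes (11 genes) were at 6956 to 10157 TPM in the thymus-like libraries and at 67.8 to 234 TPM in the lung libraries, and their part in the Ltb level was not tested. Silica_DMSO against silica gave 1.31 ± 0.55 with 15 libraries (unadjusted p = 0.0328, adjusted p = 0.708, edgeR) and 0.00 ± 0.45 (adjusted p = 1) with the 12 lung libraries. DMSO against control gave 1.06 ± 0.50 (adjusted p = 0.649) with 15 and 0.93 ± 0.37 (unadjusted p = 0.0298, adjusted p = 0.513) with 12.

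The 2 silica_DMSO lung libraries, at 22.9 and 22.2 CPM, had Ltb below all 3 silica libraries by CPM. Without the thymus-like libraries, 3 members lay lower in this way (Cxcl13, Ltb and Fcer2a), as 6.07% of all genes did. By normalised CPM silica_DMSO 5 was at 46.4 for Ltb, above silica 7 (36.3), so of the 3 only Fcer2a kept that order, which 4.05% of all genes had on that scale. For silica_DMSO against DMSO, 3 members (Cd79a, Cd79b and Ltb) lay lower by CPM without the thymus-like libraries, as 5.94% of all genes did. By normalised CPM this held for Cd79a and Cxcr5, and for 4.81% of all genes. By TPM Cd79b alone kept the order, so no member kept it on all 3 scales. The share of all genes by TPM is not given here.

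Features of single libraries ran through the members' levels. Silica 1 was the highest of the 12 lung libraries by CPM for 3 of 9 members (Cd79a, Cr2 and Cxcl13) and highest or second for 7 of 9. By TPM it was highest for 8 of 9, all but Pax5. By normalised CPM it was highest for Cr2 alone, and its rank was 7 for Cd79b, 5 for Ltb and 4 for Ccl19. TPM values of a library share a fixed total, and Scgb1a1, an airway secretory gene, was at 57189 TPM in silica 1. In the other lung libraries Scgb1a1 was at 208415 to 369259 TPM, and its part in the TPM order was not tested. Silica_DMSO 5 was the lowest for 5 of 9 by CPM (Cd79a, Cr2, Cxcr5, Ltb and Fcer2a). On the normalised scale it was the highest of the lung libraries for Cd79b (123) and Cxcl13 (40.4) and the lowest for Cd79a (22.8), Cr2 (1.22) and Fcer2a (2.85). By TPM it was the lowest for Cd79a, Cr2, Cxcr5, Ltb and Fcer2a. Its place among the lung libraries thus depended on the scale for some members, Pax5 among them, and not for Cd79a, Cr2 and Fcer2a. The shares of all genes highest in silica 1 or lowest in silica_DMSO 5 were not counted. These counts therefore cannot be read as particular to the members.

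Cd79a was set against the other members among libraries alike in length profile. Over the 7 lung libraries that are not short-gene, log2 normalised CPM of Cd79a correlated with Cxcr5 at Pearson's r = 0.963 (exact permutation p = 0.00159, adjusted over 8 genes 0.00873; Spearman's rho = 0.857, adjusted 0.0381). For Cd79b r was 0.958 (exact p = 0.00397, adjusted 0.00873; rho = 0.857, adjusted 0.0381). For Pax5 r was 0.939 (exact p = 0.00437, adjusted 0.00873; rho = 0.857, adjusted 0.0381), and for Cr2 it was 0.903 (exact p = 0.00258, adjusted 0.00873; rho = 0.964, adjusted 0.0222). For Fcer2a r was 0.897 (exact p = 0.0119, adjusted 0.0190; rho = 0.893, adjusted 0.0381). Ltb was at r = 0.552 (exact p = 0.207, adjusted 0.276; rho = 0.643, adjusted 0.185), Ccl19 at -0.181 (exact p = 0.692, adjusted 0.692; rho = 0, adjusted 1) and Cxcl13 at -0.260 (exact p = 0.561, adjusted 0.641; rho = -0.179, adjusted 0.815). After silica 2 and silica_DMSO 2, the libraries farthest from the median of Cd79a, were left out, the 5 genes named before these 3 lay between r = 0.756 and 0.938. With the same libraries left out Ltb was at 0.958, Ccl19 at 0.332 and Cxcl13 at 0.262, so the values of these 3 rested on those libraries. The libraries come from 4 groups and include silica 1, and whether they are separate animals is not given. This set of 7 was chosen after the data had been seen, and the adjusted p-values do not cover that choice.

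Over all 12 lung libraries the same correlations with Cd79a were weaker for most genes. Pearson's r was 0.771 for Cxcr5 (permutation p = 0.00408, adjusted 0.0326), 0.672 for Cr2 (adjusted 0.0684), 0.564 for Fcer2a (adjusted 0.149), 0.384 for Cd79b (adjusted 0.434) and 0.255 for Pax5 (adjusted 0.549). By Spearman's rho no gene passed, and Cxcr5 was at 0.664 (permutation p adjusted to 0.178). Without silica_DMSO 5 and silica 2, r for Cxcr5 was 0.639. The 12 libraries fall into the short-gene and the other set, and the 5 short-gene libraries are too few for a test of their own. In those 5, r with Cd79a was 0.740 for Cr2, 0.632 for Cxcr5 and 0.507 for Fcer2a, but -0.198 for Cd79b and -0.499 for Pax5. It was 0.324 for Ltb, -0.339 for Cxcl13 and -0.425 for Ccl19 there. Normalised CPM of members also followed the share of counts in genes longer than 3000 bases over these 12 libraries. TMM factors were themselves lowest where that share was lowest. With 15 libraries they were 0.478 at 11.5% in silica_DMSO 5 and 0.616 at 12.4% in DMSO 4. Ltb in silica_DMSO 5 ranked 12 of 12 by CPM (22.2) and 2 of 12 by normalised CPM (46.4). The part of the scaling in the relations with this share was not tested. Cd79b (r = -0.749), Ccl19 (r = -0.761) and Ltb (r = -0.746) were lower where that share was high, and Fcer2a (r = 0.744), Pax5 (r = 0.733) and Cr2 (r = 0.725) were higher (permutation p adjusted over 9 genes 0.0116 to 0.0117). Cxcl13 (r = -0.581, adjusted 0.0624), Cxcr5 (r = 0.388, adjusted 0.236) and Cd79a (r = 0.122, adjusted 0.704) did not pass. By Spearman's rho only Cd79b (adjusted permutation p = 0.0218), Pax5 and Cr2 (0.0205 each) passed. Ccl19, Ltb and Fcer2a did not (0.0551 each). Without silica_DMSO 5 and DMSO 4, the libraries farthest from the median share, r was -0.550 for Cd79b, -0.605 for Ccl19 and -0.425 for Ltb. It was then 0.490 for Fcer2a, 0.608 for Pax5 and 0.622 for Cr2. Among the 7 libraries that are not short-gene, the value was 0.301 for Cd79b, -0.033 for Ccl19 and 0.329 for Ltb, so their relation did not hold within that set. It was 0.687 for Fcer2a, 0.743 for Pax5, 0.756 for Cr2, 0.558 for Cd79a, 0.386 for Cxcr5 and -0.042 for Cxcl13 there. The part of this share in the correlations with Cd79a was not tested.

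**Figure D4:**
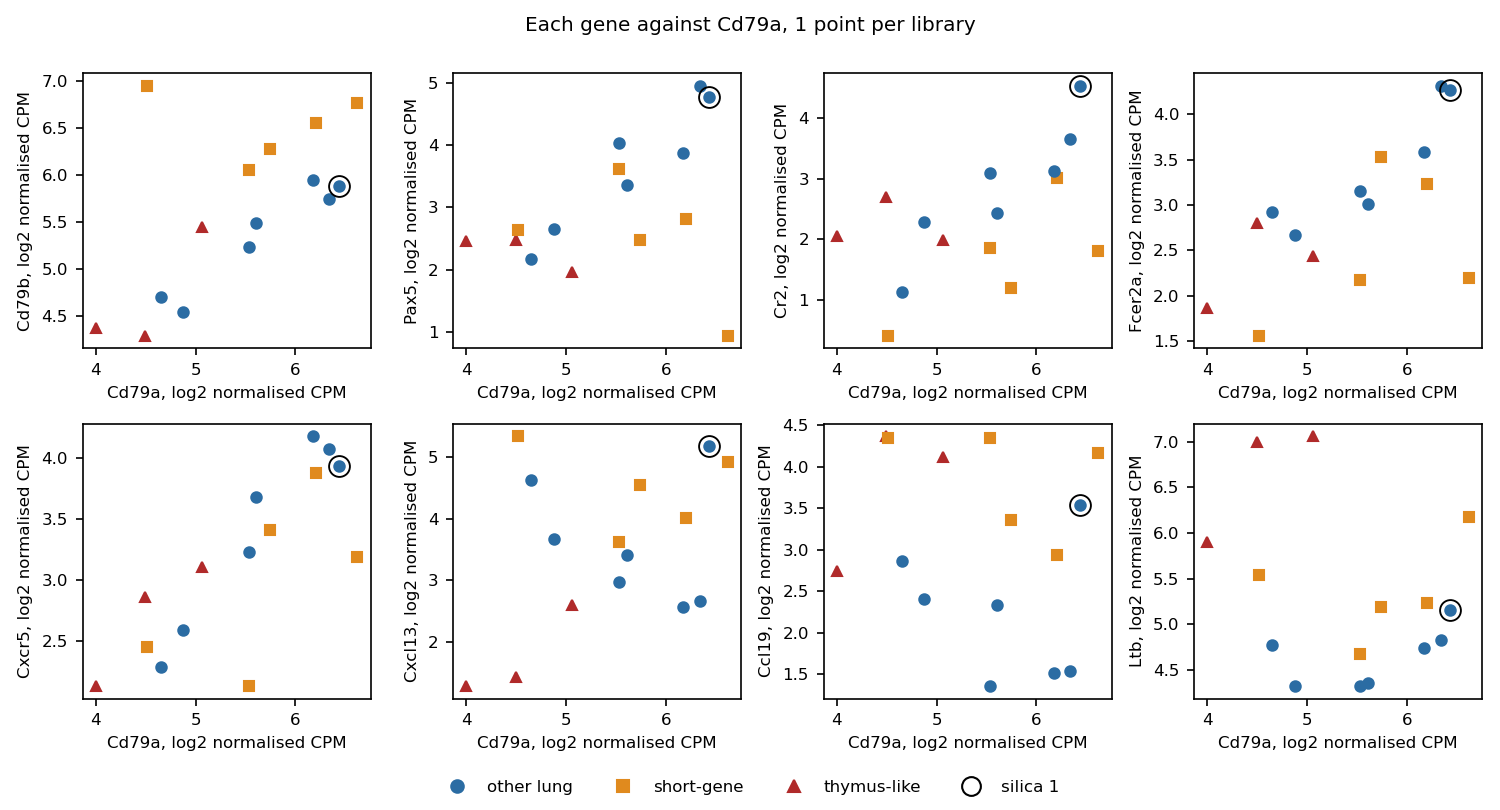
Log2 normalised CPM of each of 8 genes (y axis) against that of Cd79a (x axis), 1 point per library, with squares for short-gene, triangles for thymus-like libraries and a ring around silica 1. The circles of Cd79b, Pax5, Cr2, Fcer2a and Cxcr5 rise with Cd79a (r = 0.897 to 0.963 over 7 libraries). For Cxcl13 and Ccl19 r is -0.260 and -0.181 over the same libraries.

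Genes whose pattern over the 12 lung libraries was most like that of a member were taken from 13782 genes by Pearson's r. This is a description over libraries that differ in length profile, since they include the short-gene set. Among the genes most like Cd79a were Blk (r = 0.960), a kinase of the B cell receptor, Fcrla (0.879), Trim7 (0.842), Trp53i11 (0.819), Gpr18 (0.811), H2-Ob (0.805) and Dusp2 (0.795). Most like Cxcl13 were Gusb (0.972), a lysosomal enzyme, Tnfaip8l1 (0.968), Trem2 (0.967), a receptor of macrophages, Mthfd2 (0.965), Clec4n (0.958), Ctsd (0.955), a lysosomal protease, Saa3 (0.950), an acute-phase protein, and Cxcl16 (0.948). None of the 8 genes nearest to Cxcl13 was among the 20 other B cell genes listed, while Blk and Fcrla, both near Cd79a, were. The member nearest to Cxcl13 was Ccl19, at 0.810 over 12 libraries and 0.963 over the 7 that are not short-gene.

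As a set the members pointed in no one direction for silica against control. With 15 libraries 6 of 9 fold changes were above 0 and 3 below, with a median of 0.29 against 0 over all genes. Without silica 1 and the thymus-like libraries 4 were above and 5 below, with a median of -0.13 against -0.065. For silica_DMSO against silica 2 were above 0 and 7 below, with a median of -0.87 against 0.051 over all genes. Without silica 1 and the thymus-like libraries 6 were above and 3 below, with a median of 0.12 against 0.085. The members whose sign differed between these fits were Pax5, Cxcl13, Cr2 and Cd79b. For DMSO against control 6 were above 0 and 3 below (median 0.19 against 0.14). For silica_DMSO against DMSO 3 were above and 6 below (median -0.44 against -0.0044), and for the interaction 3 were above and 6 below (median -0.68 against -0.00017). The comparisons share their silica, control or DMSO libraries.

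Companion genes of the same cells and tissue were read beside the members from 18 lists, and in no list was a gene called by edgeR's test in silica against control or in silica_DMSO against silica, with 15 or with 12 libraries. The 20 other B cell genes had 15 fold changes above 0 and 5 below for silica against control (median 0.26, 15 libraries) and 2 above and 18 below for silica_DMSO against silica (median -0.84). Without silica 1 and the thymus-like libraries these counts were 6 above for silica against control (median -0.43) and 8 above for silica_DMSO against silica (median -0.16). Of these, Ly86, a partner of a Toll-like receptor homologue, had 0.96 ± 0.53 (adjusted p = 1) for silica against control, Cd72, an inhibitory co-receptor, 0.61 ± 0.55 (adjusted p = 1), and Vpreb3, a surrogate light chain homologue, -0.17 ± 1.35 (adjusted p = 1). Summed, the 20 genes were at 484 TPM in silica 1, at 77.3 to 332 TPM in the other 11 lung libraries and at 115 to 172 TPM in the thymus-like libraries. Vpreb3 itself was at 2.38 to 11.4 TPM in the thymus-like libraries and at 29.9 to 119 TPM in the lung libraries.

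The chemokine and lymphotoxin surroundings showed no called gene either. The 12 other lymphoid chemokines and receptors had 7 values above 0 and 5 below for silica against control (median 0.12), and 5 above 0 (median -0.16) with those libraries left out. Ccl21a, the other ligand of the Ccl19 receptor, had 0.14 ± 0.69 (adjusted p = 1), and its reads are shared with near-identical copies, so that level too is uncertain. It was at 64.5 to 226 TPM in the lung libraries and at 360 to 1504 TPM in the thymus-like ones. Cxcl12, a stromal chemokine, had -0.19 ± 0.50, and its receptor Cxcr4 had 0.10 ± 0.65 (adjusted p = 1 for both). Ccr7, the receptor of Ccl19, was named after its values had been seen: it was at 3.22 to 22.5 TPM in the lung libraries and at 38.3, 110 and 68.4 TPM in DMSO 7, silica_DMSO 4 and silica_DMSO 6, and had -0.17 ± 0.57 (adjusted p = 1) for silica against control. The 13 lymphotoxin and noncanonical NF-kB genes had 10 above 0 and 3 below (median 0.55). Among them Ltbr, the receptor for the Ltb product, had -0.10 ± 0.54, Tnfrsf1a, a tumour necrosis factor receptor, -0.03 ± 0.29, and Birc3, a target of NF-kB, 0.34 ± 0.24 (adjusted p = 1 for each).

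Stroma and germinal centre genes completed the follicle. Of 12 genes of follicular dendritic and reticular stroma, 11 were tested and 7 had values above 0 for silica against control (median 0.31). Clu, a chaperone that follicular dendritic cells secrete, had 0.31 ± 0.71, Icam1, an adhesion molecule, 0.04 ± 0.50, and Mfge8, a bridge to dying cells, -0.55 ± 0.53 (adjusted p = 1 for each). Of the 10 germinal centre genes 9 had values above 0, some of them fitted from low counts, for which no median is given, and 4 did without silica 1 and the thymus-like libraries. Basp1 had 1.97 ± 0.54 (unadjusted p = 0.00267, adjusted p = 1), Bcl6, the factor of germinal centre B cells, 0.06 ± 0.52 (adjusted p = 1), and Fas, a death receptor, -0.12 ± 0.36 (adjusted p = 1). All 10 plasma cell genes had values above 0 (median 1.03) with 15 libraries, and 4 of 10 did (median -0.15) without silica 1 and the thymus-like libraries. Their summed level was 40777 TPM in silica 1, 2825 TPM in silica 2 and 1842 TPM in silica 7, against 2089 to 5715 TPM in control. It ran from 1193 to 19543 TPM in the DMSO lung libraries and from 4233 to 6911 TPM in the silica_DMSO lung libraries.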

How the data were processed

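RNA of 15 libraries labelled as mouse lung was sequenced, and sample groups and numbers came from the labels. The extraction text in the labels speaks of retinas while the tissue field says lung; the tissue field is used here. The deposited tables give, per the file headers, an expected (estimated) count, a TPM value and a gene length for 57010 genes in each library; the authors' 8 columns of group means were not used, and 0 per-sample columns had no sample. The authors' length in bases, a further kind of value in the deposited tables, was used for the share of counts in long genes. For the counting, the program was not given in the sources used here. Bowtie 0.12.2 and build mm8 are named by the submitters' processing notes and could not be checked against the values. Of the deposited expected counts, 7.52% to 10.0% per library were not whole; they were rounded.

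Genes were kept by filterByExpr (smallest count 10, smallest total 15), which left 17879. The test was edgeR's quasi-likelihood test with TMM scaling on 4 group means over 15 libraries, with Benjamini-Hochberg adjusted p-values over all genes tested and a threshold of 0.05. The biological coefficient of variation was 0.666. Depth lay between 17434649 and 20829960 counts, so low values carry counting error that the fit includes. Correlations used log2 normalised CPM with a prior count of 2, and their p-values came from 100000 permutations or, for 7 libraries, from all arrangements. The implied length of a gene is its count per listed length divided by its TPM, relative to the median of that ratio in its library, times the listed length. The edgeR script was tested on simulated counts.

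The 9 members and 18 gene lists were chosen with earlier results of these data known. Named were the 9 members, the 3 genes of each list with the highest mean TPM and up to 3 called genes of it, and the 8 genes most like Cd79a and Cxcl13 among 13782 genes at 1 CPM or more on average. Ccr7 was added after its values were seen, and some genes that the rule names are not reported here. Alternatives were other filters, DESeq2, DESeq2 size factors, limma-trend on the deposited TPM values, only the groups compared, a replicate block, leaving out each library and leaving out the libraries named in the report. A term or exclusion for short-gene libraries and the sum of Ccl19 copies were added after seeing the data. Protein sequences had been planned and are not shown, since no protein table was used here. Software was R 4.3.3, edgeR 4.0.16, limma 3.58.1, DESeq2 1.42.0, data.table version 1.17.8, Python 3.11.15, pandas 2.3.3 and matplotlib 3.10.9.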

Additional observations from a re-analysis of the deposited data

Results flagged for a closer look

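Of 27 sets of 4 libraries (9 members in each of 3 groups), 3 had 1 library whose distance to its neighbour in log2 normalised CPM passed Dixon's 95% limit relative to the range of the set. Chance alone passes it in about 1 in 20 sets. Cd79a in control 4 was at 94.7 CPM, or 6.34 in log2 normalised CPM, against 5.53 to 5.61 in the other 3 controls, a gap of 0.906 of the range. Cd79a in DMSO 7 was at 18.7 CPM, or 3.999 in log2 normalised CPM, against 6.17 to 6.62 in the other 3 DMSO libraries, a gap of 0.8294 of the range that lies just over the limit. DMSO 7 is a thymus-like library, and the part of its thymus transcripts in that value was not tested. Ccl19 in silica_DMSO 2 was at 6.01 CPM, or 2.41 in log2 normalised CPM, against 4.11 to 4.37 in the other 3 silica_DMSO libraries, a gap of 0.871 of the range. Among those 3, silica_DMSO 4 and 6 are thymus-like and silica_DMSO 5 is a short-gene library, which the result was not tested for. The count of Ccl19 is uncertain because of its copies.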

How the results depend on the processing

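No alternative called a member: the count was 0 of 9 in each of the 5 comparisons under each of 26 or 27 settings. For single members in 3 comparisons, 662 values kept their direction and 67 did not, and none of them passed the threshold in any setting. In each case given here the cause was not tested. Values are log2 fold changes. The direction of Cxcl13, Pax5, Ltb and Ccl19 for silica against control held under each setting tried. So did that of Cd79a, Fcer2a and Cxcr5 for silica_DMSO against silica, and of Pax5 and Ltb for DMSO against control.

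Without the 3 thymus-like libraries, Cd79b was at 0.43 for silica_DMSO against silica. With silica 1 left out as well, silica against control turned for Fcer2a (-0.13) and Cr2 (-1.81), and silica_DMSO against silica turned for Pax5 (0.29), Cxcl13 (0.12), Cr2 (0.50) and Cd79b (0.48). In the edgeR fit with DESeq2 size factors and in the DESeq2 test, Cd79b for silica_DMSO against silica was 0.0015 and 0.0017. On log2(TPM + 1) with limma-trend, silica against control turned for Cr2 (-0.25) and Cd79b (-0.056), and DMSO against control for Cd79a (-0.45), Cxcl13 (-0.37), Cd79b (-0.18), Cxcr5 (-0.25) and Ccl19 (-0.062). On log2(TPM + 0.1) the same 7 values were -0.65, -0.059, -0.46, -0.43, -0.18, -0.28 and -0.064.

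The replicate block also called 0 members in each comparison, and it turned Cd79a (0.095) and Cr2 (-0.37) for silica against control, and Cd79a (-0.11) and Cxcr5 (-0.32) for DMSO against control. The deviations of the 8 same-numbered pairs of lung libraries correlated at -0.463 to 0.381 (mean -0.042), with 3 over 0.1. In the 45 other pairs the mean was 0.0082, with 17 over 0.1. So few same-numbered pairs cannot decide whether the numbers pair the libraries.

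Among alternatives chosen after seeing the data, a short-gene term in the fit of 12 libraries turned silica against control for Cd79b (-0.075) and Cxcr5 (0.032), silica_DMSO against silica for Ltb (-0.20), Cd79b (0.035) and Ccl19 (-0.39), and DMSO against control for Fcer2a (0.13), Cr2 (0.59) and Ccl19 (-0.30). The 7 libraries that are neither thymus-like nor short-gene turned silica against control for Cd79b (-0.084), silica_DMSO against silica for Ltb (-0.68) and Ccl19 (-0.86), and DMSO against control for Cxcl13 (-0.48) and Ccl19 (-0.31).

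Leaving out each library in turn gave these ranges where a direction turned. For silica against control they were -0.50 to 0.34 for Cd79a (turned without control 4, silica 2 or silica 7), -0.12 to 0.84 for Fcer2a and -1.80 to 0.77 for Cr2 (both without silica 1), -0.25 to 0.44 for Cd79b (without control 2 or silica 7) and -0.49 to 0.26 for Cxcr5 (without control 4, control 7 or silica 2). For silica_DMSO against silica they were -1.61 to 0.12 for Pax5 and -1.65 to 0.92 for Cr2 (both without silica 1), and -0.91 to 0.30 for Cd79b (without silica 1, silica 7, silica_DMSO 2, silica_DMSO 4 or silica_DMSO 6). For DMSO against control they were -0.041 to 0.55 for Cd79a and -0.19 to 0.92 for Cxcl13 (both without DMSO 4), -0.83 to 0.049 for Fcer2a and -0.54 to 0.063 for Cr2 (both without control 4), -0.21 to 0.39 for Cxcr5 (without control 1, DMSO 1 or DMSO 6) and -0.43 to 1.35 for Ccl19 (without control 2, control 4 or DMSO 4). Cxcl13 for silica against control ran from 1.38 to 1.77. Depth limits Pax5 and Cr2 most, at 22 counts in DMSO 4 and 12 counts in silica_DMSO 5.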

Other observations

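Cells and signals that surround follicles were read from the lists not described above, by edgeR's test on 15 libraries, where 0 genes of each list were called for silica against control and for silica_DMSO against silica. Of the 5 genes of the BAFF and APRIL system, which feeds B cell survival, 4 had values above 0 for silica against control (median 0.42), and 1 did (median -0.17) without silica 1 and the thymus-like libraries. Tnfsf13, which encodes APRIL, had a log2 fold change of 1.09 ± 1.05, Tnfrsf13b, a receptor of both ligands, 0.42 ± 0.53, and Tnfsf13b, which encodes BAFF, -0.05 ± 0.75 (adjusted p = 1 for each). Of 7 tested follicular helper T cell genes 4 were above 0 and 3 below (median 0.80). Pdcd1, the inhibitory receptor PD-1, had 2.11 ± 0.91 (unadjusted p = 0.0357, adjusted p = 1), while Maf had -0.17 ± 0.41 and Sh2d1a, an adaptor of T cell help, -0.08 ± 1.23 (adjusted p = 1 for both). Pdcd1 was at 4.61, 1.62 and 1.40 TPM in silica 1, 2 and 7, 0.25 to 1.30 TPM in control and 10.1 to 18.95 TPM in the thymus-like libraries. Among all genes, 2.72% lay higher in all silica libraries than in all controls by TPM. Of 9 mature dendritic cell genes 6 were above 0 (median 0.78), with Ccl17, a chemokine of dendritic cells, at 0.83 ± 1.22 and Lamp3 at -0.16 ± 1.30 (adjusted p = 1 for both).

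Of 7 tested genes of high endothelial venules and lymphatics 3 were above 0 and 4 below (median -0.64), and Lyve1, a receptor of lymphatic endothelium, had -0.97 ± 1.26 (adjusted p = 1). All 7 lung endothelial genes were below 0 (median -0.67), with Pecam1, the endothelial junction protein, at -0.67 ± 0.69 (adjusted p = 1). Their summed level ran from 161 to 1761 TPM in the lung libraries and from 66.5 to 392 TPM in the thymus-like ones. Of 6 tested innate lymphoid and tissue inducer genes 3 were above 0 and 3 below, with Kit, a growth factor receptor, at -0.68 ± 0.85 (adjusted p = 1). Of 6 tested B cell precursor genes 4 were above 0 and 2 below, with Il7r at 0.46 ± 0.56 (adjusted p = 1). Of 9 alveolar type 2 genes 3 were above 0 and 6 below, and 5 of 5 airway secretory genes were above 0 (Scgb1a1 0.02 ± 1.60, adjusted p = 1). The 11 T cell genes had 8 above 0 for silica against control and 11 above 0 for silica_DMSO against silica, the 10 thymocyte genes had 7 and 10, and the 7 thymic epithelium genes 4 and 7. In that last comparison 2 of the 4 silica_DMSO libraries are thymus-like.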
